A study of Mus musculus and Homo sapiens with 22 samples.

Results

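A set of 10 core genes of the Hippo-YAP pathway was examined for PROX1 occupancy: Yap1, Wwtr1, Tead1, Tead2, Tead4, Lats1, Lats2, Cyr61 (Ccn1), Ctgf (Ccn2) and Amotl2, that is 10 of the 21911 protein-coding mouse genes and 10 of the 20007 human ones in the annotations used. A peak was assigned to a gene when its summit fell in the gene body or within 50 kb of it. This rule took 60 of 50159 liver peaks, 84 of 40531 fibroblast peaks and 27 of 14369 Hep3B peaks, 171 of 105059 in all. Choosing by position used no measured value, but the gene set itself was picked with earlier results of these data known.

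The Hippo pathway is a kinase cascade that restrains tissue growth. Its LATS kinases phosphorylate the transcriptional coactivators YAP and TAZ and keep them out of the nucleus, and when the kinases are inactive the coactivators bind TEAD proteins on DNA and switch on targets such as Cyr61, Ctgf and Amotl2. In liver the pathway is known for its control of organ size and of the boundary between hepatocyte and biliary identity, and sustained YAP activity drives liver tumours. PROX1 is a homeobox transcription factor of hepatocytes and lymphatic endothelium.

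The series used CUT&RUN, a method that tethers a nuclease to chromatin through an antibody and sequences the DNA it releases, on 22 samples of 6 groups. In liver, 5 samples received an antibody against endogenous PROX1 and 5 a rabbit IgG. All came from untreated wild-type C57BL/6J mice aged 2 to 3 months, and the labels describe the pelleted nuclei as those of hepatocytes without naming a sort. Mouse embryonic fibroblasts (MEFs) of wild-type C57BL/6N embryos at E13.5 carried rtTA and tetO-FLAG-mmProx1 lentiviruses and received 2 µg/ml doxycycline for 2 days, with a FLAG antibody in 3 samples and IgG in 3. Cells of Hep3B, a human liver cancer line in long use, carried the pLIX-Puro-hsPROX1 lentivirus after puromycin selection and were induced at the same dose and for as long, with the FLAG antibody in 3 samples and IgG in 3. MEF and Hep3B peaks therefore report a factor expressed from a vector, also in their IgG samples, while liver peaks report the endogenous protein. Between liver and the others the antibody and its amount, the number of nuclei, the expression level and the cell type change together. Between liver and Hep3B the species changes as well. Between MEFs and Hep3B the species and the cell type change together, and none of these can be told apart.

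Each peak list pools the antibody samples of 1 group. No value below has a replicate spread, the sequencing depth is unknown, no test between conditions could be made, and IgG lists and single samples were not analysed here. Strength is the −log10 p that the authors' peak caller gave the summit, ranked within a list only. A percentile is the place of a peak in its list, from 0 for the weakest to 100 for the strongest, and of a gene likewise among all protein-coding genes. The lists begin at different floors, at an area under the significance curve of 500 in liver and 200 in the others. Promoter occupancy of cell type markers matched the labels of the mouse material, with promoter peaks at 8 of 8 hepatocyte markers in liver and 8 of 8 fibroblast markers in MEFs. Promoter peaks stood at 0 of 8 hepatocyte markers in MEFs and at 1 of 8 in Hep3B (CPS1). Among the 8 fibroblast markers, 1 had a promoter peak in liver (Pdgfra) and 1 in Hep3B (COL1A1). Of 6 cholangiocyte markers, 1 had a promoter peak in liver (Spp1), 2 in MEFs (Epcam, Sox9) and 3 in Hep3B (EPCAM, KRT19, SOX9). Of 6 endothelial markers, 2 had one in MEFs (Flt4, Kdr) and 0 in liver or Hep3B. Over all protein-coding genes the shares were 26.5% for the liver list, 55.1% for the MEF list and 43.7% for the Hep3B list. These counts describe occupancy and not expression.

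The stretches that carry the findings are the summits of Hep3B peaks that aligned to the mouse genome at the same gene, each shown with its mouse partner and in the direction of the gene. Capitals mark a TEAD site (GGAATG, or CATTCC on the other strand) or a nuclear receptor half-site (AGGTCA or TGACCT). The first pair lies in an intron of Amotl2, at hg38 chr3:134364186-134364306 (minus strand) and mm10 chr9:102726433-102726557 (plus strand), and was covered by a peak in all 3 lists. The second lies beyond Amotl2, at hg38 chr3:134313422-134313482 (minus) and mm10 chr9:102779673-102779733 (plus), and was also covered in all 3 lists.
AMOTL2 intron, human: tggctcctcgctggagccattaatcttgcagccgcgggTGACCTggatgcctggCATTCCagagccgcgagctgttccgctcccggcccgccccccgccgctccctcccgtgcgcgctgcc
Amotl2 intron, mouse: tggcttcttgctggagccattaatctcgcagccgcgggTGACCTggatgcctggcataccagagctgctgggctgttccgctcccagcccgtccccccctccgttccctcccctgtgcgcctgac
AMOTL2 distal, human: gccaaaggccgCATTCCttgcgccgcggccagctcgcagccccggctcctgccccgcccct
Amotl2 distal, mouse: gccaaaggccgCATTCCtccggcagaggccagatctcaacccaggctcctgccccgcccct

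The remaining sequences show an intron of Tead1 shared by Hep3B and liver, at hg38 chr11:12802822-12802942 (plus) and mm10 chr7:112788483-112788603 (plus), a region downstream of Wwtr1 shared by the same lists, at hg38 chr3:149468642-149468762 (minus) and mm10 chr3:57420394-57420514 (minus), and the 24 bases around a TEAD site at a start of Lats2 shared by Hep3B and MEFs, at hg38 chr13:21061566-21061589 (minus) and mm10 chr14:57746108-57746131 (minus).
TEAD1 intron, human: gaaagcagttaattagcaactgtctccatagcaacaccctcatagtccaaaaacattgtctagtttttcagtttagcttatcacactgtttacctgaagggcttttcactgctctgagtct
Tead1 intron, mouse: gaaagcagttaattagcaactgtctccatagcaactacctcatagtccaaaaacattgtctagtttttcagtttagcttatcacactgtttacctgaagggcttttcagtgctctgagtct
WWTR1 downstream, human: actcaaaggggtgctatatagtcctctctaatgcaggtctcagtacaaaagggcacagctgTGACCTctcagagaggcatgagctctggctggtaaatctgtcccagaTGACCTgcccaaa
Wwtr1 downstream, mouse: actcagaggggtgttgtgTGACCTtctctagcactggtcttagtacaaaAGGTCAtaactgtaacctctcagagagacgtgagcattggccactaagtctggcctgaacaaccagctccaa
LATS2 start, human: cgtgacgcccgtGGAATGccaaca
Lats2 start, mouse: cgtgacgcccgtGGAATGccaaca

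Occupancy was unevenly spread over the 10 genes. In liver, 8 of 10 genes had a peak in their window, against 69.2% of all protein-coding genes, and the genes without one were Tead2 and Lats2. All 10 genes had a peak in MEFs (81.3% of all genes) and all 10 in Hep3B (72.0%). A gene had a median of 4.5 peaks in liver, 7 in MEFs and 2.5 in Hep3B, and over all protein-coding genes the medians were 3, 4 and 1. Window length differs between genes, and per 100 kb of window the medians were 2.95, 4.41 and 1.65 peaks, against 1.85, 2.73 and 0.897 over all genes. By count, the genes with the most peaks were Amotl2 in liver (16), Tead1 in MEFs (25) and WWTR1 in Hep3B (7). Per 100 kb of window, Amotl2 was the highest of the 10 genes in liver (13.7), MEFs (9.42) and Hep3B (3.33). Tead1 had 7.63 in MEFs and WWTR1 2.19 in Hep3B, both genes with long windows.

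**Figure D1:**
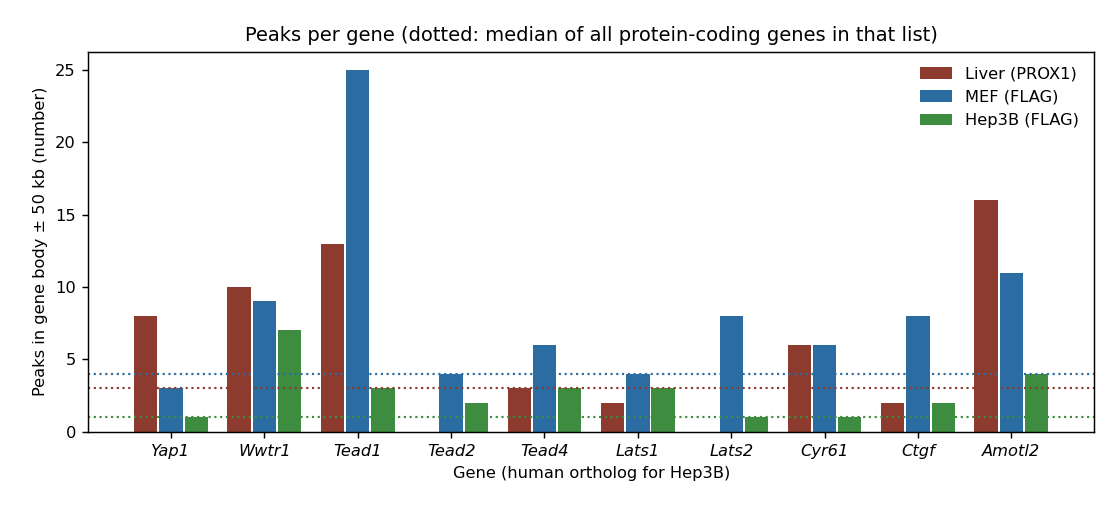
Number of peaks in the gene body or within 50 kb (y axis) of each of the 10 genes (x axis) in the 3 pooled peak lists, with dotted lines at the median over all protein-coding genes of the list. Tead1 reached 25 peaks in MEFs and Amotl2 16 in liver, while Tead2 and Lats2 had none in liver.

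By distance to any protein-coding transcription start site (TSS), 9 of the 60 liver summits (15.0%, beside 14.5% of all liver peaks), 21 of the 84 MEF summits (25.0%, beside 32.0%) and 14 of the 27 Hep3B summits (51.9%, beside 58.2%) lay within 1 kb. Introns held 32 of the 60 liver summits, 45 of the 84 MEF summits and 13 of the 27 Hep3B summits, and intergenic sequence held 26, 28 and 11. Intron and intergenic shares over the whole lists were not computed. The nearest protein-coding TSS belonged to the pathway gene itself for 45 liver, 59 MEF and 18 Hep3B peaks. The rest lay closer to a neighbour, so their assignment rests on distance alone.

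**Figure D2:**
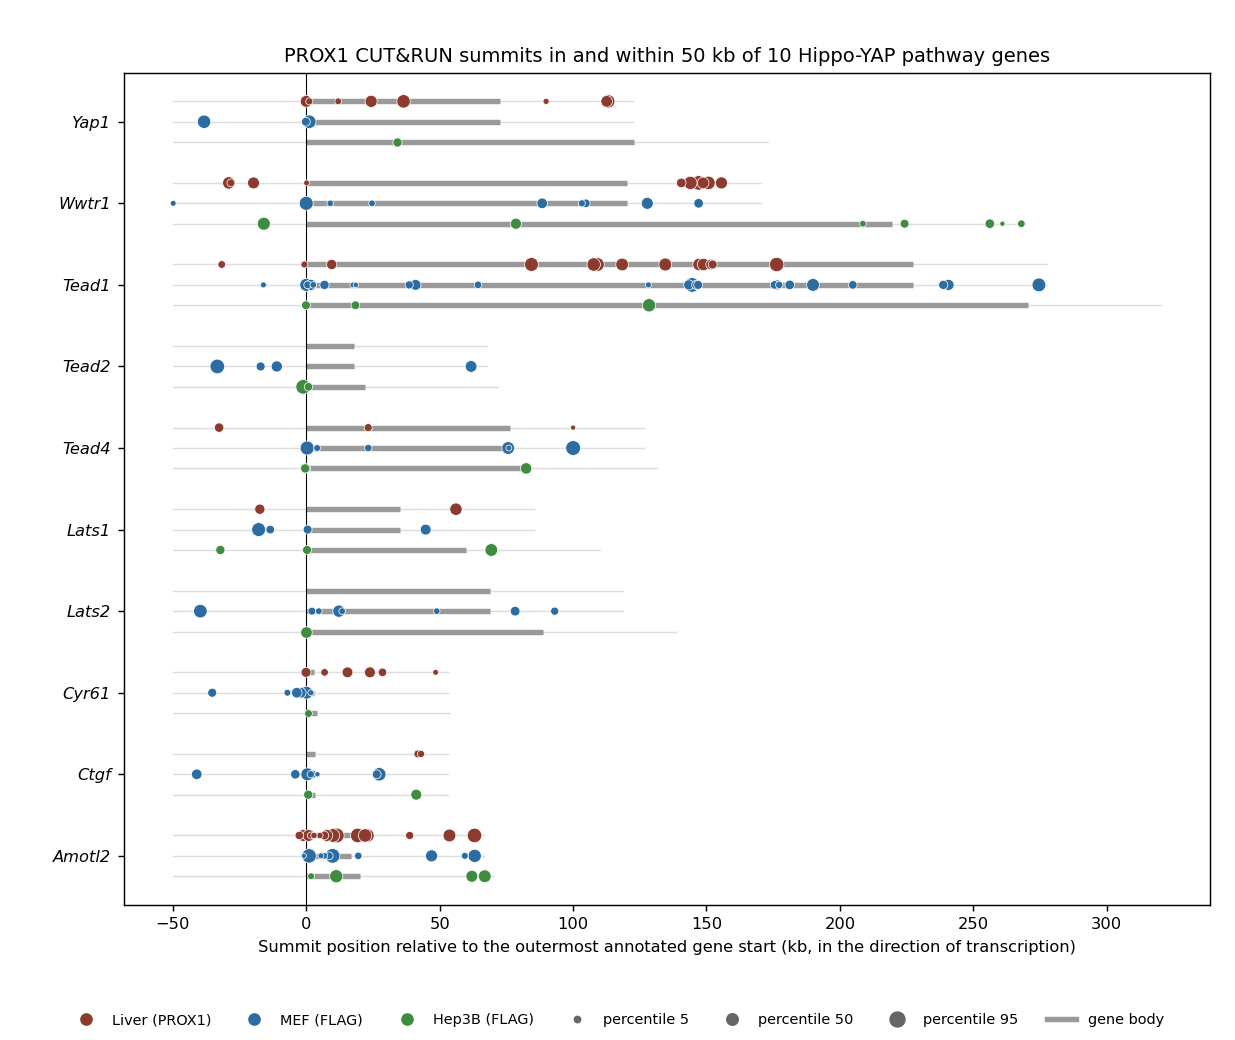
Position of every summit relative to the outermost annotated start of its gene (x axis, kb in the direction of transcription) for the 10 genes (y axis), with liver, MEF and Hep3B in separate lines, grey bars for gene bodies and dot area rising with the percentile of −log10 p in the list. Liver summits at Wwtr1 cluster beyond the gene's end and those at Amotl2 run from 2.62 kb before the start to 63.0 kb past it.

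The strength of the peaks was near the middle of the liver list and below it in the others. Liver peaks had a median percentile of 55.7, MEF peaks of 28.0 and Hep3B peaks of 30.3, with median −log10 p of 12.7, 5.18 and 5.84 beside 12.2, 5.96 and 6.44 over each whole list. Ranked by area under the significance curve, the medians were 49.9, 45.4 and 47.1, so the lower place of MEF and Hep3B peaks did not hold to that extent under this measure. Among the strongest 10% of a list stood 5 liver peaks, 5 MEF peaks and 1 Hep3B peak. Widths were close to those of the lists, with medians of 508, 696 and 584 bp at the 10 genes and 504, 646 and 634 bp over all peaks.

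**Figure D3:**
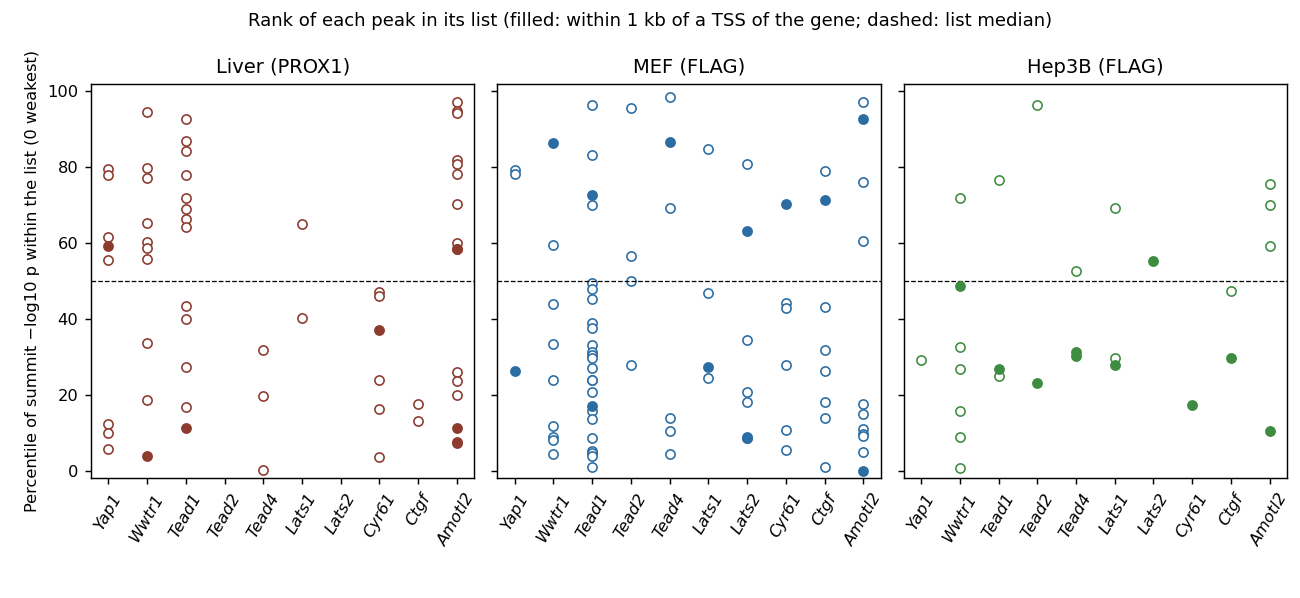
Percentile of the summit −log10 p within its list (y axis) for every peak at each gene (x axis) in liver, MEF and Hep3B panels, filled where the summit lies within 1 kb of a TSS of the gene and hollow elsewhere, with a dashed line at the list median. In liver the highest points, Amotl2 at 97.3 and Wwtr1 at 94.6, are hollow, while the filled points in MEFs reach 92.6 at Amotl2.

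Yap1 and Wwtr1 encode YAP and TAZ, the coactivators on which the pathway converges. Yap1 (mm10 chr9:7931999-8004596, minus strand) had 8 peaks in liver, with −log10 p from 8.42 to 15.8. The strongest, at chr9:7967966-7968343, lay in an intron 33.6 kb past a start and stood at percentile 79.4. Its promoter peak in liver had its summit 21 bp upstream of a TSS, with a −log10 p of 13.1 (percentile 59.2). MEFs gave 3 peaks at Yap1, of which the promoter peak reached 5.13 (percentile 26.3) and an intronic one 1108 bp downstream of the start 7.30 (percentile 79.3). The same intronic site was occupied in liver, with summits 21 bp apart, at a −log10 p of 9.12 and percentile 12.3. In both lists this site held an AP-1 site (TGANTCA), the motif of the FOS and JUN factors that often work beside TEAD. A TEAD site was matched there in neither list. The PROX1 consensus, with mismatches allowed, was matched there in both. Hep3B had 1 peak at YAP1, with a −log10 p of 5.81 (percentile 29.2), in an intron 32.0 kb from a TSS, and none at its promoter. YAP1 was thus the 1 gene of the 10 without a promoter peak in Hep3B, while its promoter was occupied in both mouse lists.

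Wwtr1 (mm10 chr3:57455649-57575910, minus) had 10 peaks in liver, with −log10 p from 8.12 to 19.8. The strongest, at chr3:57428605-57429969 and percentile 94.6, lay 147.0 kb past the gene's start inside an intron of the neighbour Tm4sf4, whose TSS was the nearest. Tm4sf4 encodes a tetraspan membrane protein. Of the 10 liver peaks, 4 had Wwtr1 as the nearest gene. The promoter peak of Wwtr1 was among the weakest of the liver list, with a −log10 p of 8.12 and percentile 3.94. In MEFs the promoter peak was the strongest of the 9 at this gene, with a −log10 p of 7.78, percentile 86.3 and a summit 29 bp upstream of a TSS. WWTR1 in Hep3B (hg38 chr3:149517235-149736714, minus) had 7 peaks, at percentile 96.8 among protein-coding genes by count and 77.0 per 100 kb of window, and 2 of the 7 had WWTR1 as the nearest gene. The strongest of them, with a −log10 p of 7.26 (percentile 72.0), lay nearest to COMMD2, and the promoter peak reached 6.42 (percentile 48.8).

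The TEAD proteins bring YAP and TAZ to DNA. Tead1 (mm10 chr7:112679318-112906807, plus) had 13 peaks in liver, 11 of them in the gene body, with −log10 p from 9.02 to 19.0. The strongest, at chr7:112855321-112856524 and percentile 92.7, was intronic and 96.1 kb past the nearest start. Its promoter peak, 719 bp upstream of a TSS, was the weakest of the 13 (9.02, percentile 11.4). MEFs had 25 peaks at Tead1, at percentile 99.8 among protein-coding genes by count. Tead1 is a long gene, and per 100 kb of window it stood at percentile 89.5. These peaks ran from 3.91 to 9.08 in −log10 p. The strongest, at chr7:112823267-112824204 and percentile 96.5, held an AP-1 site within 150 bp of its summit, and the promoter peak reached 6.95 (percentile 72.6) 11 bp upstream of a TSS. TEAD1 in Hep3B had 3 peaks, from 5.65 to 7.49, the strongest in the intron whose sequence is shown above and the promoter peak at 5.73 (percentile 26.7).

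Tead2, which is prominent in embryonic tissue, had no peak in liver, where the nearest summit was 66788 bp from its TSSs. In MEFs it had 4 peaks and none in its body or at its promoter, with −log10 p from 5.18 to 8.90. The strongest, at mm10 chr7:45182138-45182710 and percentile 95.6, was nearest to Pth2. TEAD2 in Hep3B had 2 peaks. One was a promoter peak of 5.60 (percentile 23.1), and the other, of 8.79 at hg38 chr19:49363483-49364051, was the strongest Hep3B peak of the whole gene set (percentile 96.5). Its summit lay 1159 bp upstream of a TEAD2 start, in an intron of DKKL1, whose TSS was nearer. It is therefore 1 of the peaks that the window rule cannot separate between neighbours.

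Tead4 had 3 peaks in liver, with −log10 p of 10.6, 9.76 and 6.80, and no promoter peak there, the nearest summit being 2035 bp from a TSS. The weakest of them stood at percentile 0.185. MEFs occupied the same place, with summits 6 bp apart, through their strongest peak of the gene set, of 9.72 at mm10 chr6:128200065-128201754 and percentile 98.5. This site lay 74.8 kb past the nearest Tead4 start and nearest to Tspan9, a tetraspanin gene. It was thus near the top of one list and near the bottom of the other. The Tead4 promoter was occupied in MEFs at 7.82 (percentile 86.7), 227 bp past a TSS. TEAD4 in Hep3B had 3 peaks, with neighbouring promoter peaks of 5.86 and 5.84 and 1 of 6.53 past the gene's end.

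Lats1 and Lats2 encode the kinases that restrain YAP and TAZ, and neither had a promoter peak in liver. Lats1 had 2 liver peaks, of 13.7 and 11.3, in introns of its neighbours Katna1 and Pcmt1. Lats2 had none, and the nearest liver summit was 129902 bp from a TSS of the gene. In MEFs, Lats1 had 4 peaks. Its promoter peak reached 5.16 (percentile 27.4), and the strongest, of 7.67 (percentile 84.8), lay at Pcmt1. Lats2 had 8 MEF peaks, with −log10 p from 4.46 to 7.41. The strongest lay nearest to Sap18, and the stronger of the promoter peaks reached 6.50 (percentile 63.1) 50 bp upstream of an internal start. In Hep3B, LATS1 had 3 peaks, from 5.75 at its promoter to 7.13 at KATNA1, and LATS2 had 1, at its promoter (6.62, percentile 55.2). Both kinase genes thus had a promoter peak in the MEF and Hep3B lists, and neither had one in the liver list. Of all protein-coding genes, 55.1% had one in MEFs, 43.7% in Hep3B and 26.5% in liver.

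Cyr61 and Ctgf encode secreted matricellular proteins and are commonly used reporters of YAP activity. Cyr61 (mm10 chr3:145646976-145649981, minus) had 6 peaks in liver, all below the list median in −log10 p, which ran from 8.07 to 11.9. The strongest lay 23.9 kb past the start and stood at percentile 47.0 by −log10 p and 91.6 by area, and the promoter peak, 101 bp upstream of the TSS, reached 11.1 (percentile 37.0). In MEFs the promoter peak was the strongest of 6, with a −log10 p of 6.83 and percentile 70.2, and spanned 1732 bp. By area it stood at percentile 98.0. CCN1 in Hep3B had 1 peak, of 5.41 (percentile 17.3), 665 bp past the TSS in a coding exon.

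Ctgf (mm10 chr10:24595442-24598683, plus) differed from Cyr61 in liver, where it had 2 weak peaks of 9.57 and 9.18 (percentiles 17.5 and 13.0), the nearest 41.5 kb from a TSS. MEFs placed 8 peaks there, 7.75 per 100 kb of window, at percentile 89.9 of all genes by density. The strongest, of 7.29 (percentile 78.9), lay 27.0 kb past the start, and the promoter peak reached 6.88 (percentile 71.4) 47 bp past a TSS. CCN2 in Hep3B had a promoter peak of 5.82 (percentile 29.6) that was 1749 bp wide, and 1 more of 6.35. None of the liver peaks at Ctgf overlapped a MEF peak.

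Amotl2 encodes an angiomotin family scaffold that binds YAP and restrains it, and is itself a YAP target. By density of peaks it stood high among all genes in every list. Its 16 liver peaks amount to 13.7 per 100 kb of window, at percentile 95.7 of all genes by density. In MEFs the density was 9.42 (percentile 94.2) and in Hep3B 3.33 (percentile 87.3). Of the 5 liver peaks in the strongest 10%, 3 were at this gene. The strongest, of 21.5 at mm10 chr9:102727053-102728909 (percentile 97.3), lay in an intron 7.81 kb past the nearest start. A peak of 19.9 (percentile 94.8) lay 59.4 kb past it, nearest to Ryk, a receptor gene. The third, of 19.7 (percentile 94.4), was 3195 bp wide and lay just past the gene's end. The 3 promoter peaks were weaker, at 13.0, 9.02 and 8.59 (percentiles 58.4, 11.3 and 7.30). MEFs had 11 peaks at Amotl2. An intronic one of 9.29 (percentile 97.2) was the strongest, and a promoter peak of 8.41 (percentile 92.6) the next. That intronic MEF peak overlapped a liver peak of 16.3 (percentile 82.0), and the strongest liver peak overlapped no MEF peak. AMOTL2 in Hep3B had 4 peaks, led by an intronic one of 7.43 (percentile 75.5) and with the promoter peak, of 5.15, lowest (percentile 10.4).

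**Figure D4:**
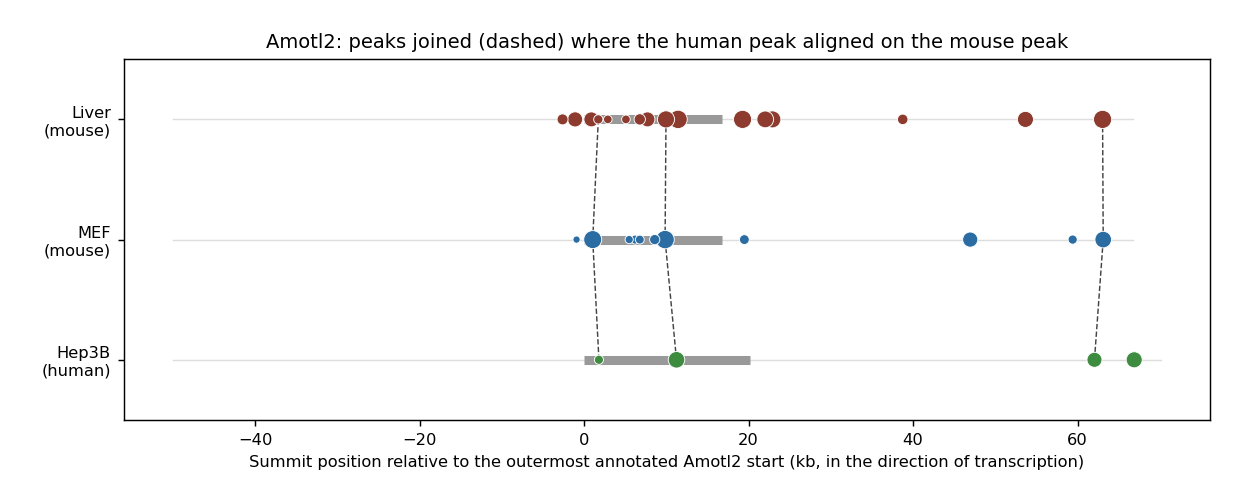
Summits at Amotl2 in liver and MEFs (mouse) and in Hep3B (human) relative to the outermost annotated start (x axis, kb in the direction of transcription), with grey bars for gene bodies, dot area rising with the percentile in the list and dashed lines joining human peaks to the mouse peaks they aligned on. Promoter, intron and distal sites were each occupied in all 3 lists, the distal one 63.0 kb past the mouse start and 62.1 kb past the human one.

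Promoter occupancy, defined as a summit within 1 kb of a TSS of the gene, was found at 5 of 10 genes in liver, 9 of 10 in MEFs and 9 of 10 in Hep3B, beside 26.5%, 55.1% and 43.7% of all protein-coding genes. Wwtr1, Tead1, Cyr61 and Amotl2 had a promoter peak in all 3 lists, 4 of 10 genes beside 21.9% of the genes that share a symbol between the species. Yap1 had one in both mouse lists. Tead4, Lats1, Lats2 and Ctgf had one in MEFs and Hep3B and not in liver, and Tead2 in Hep3B alone. The median percentile of the promoter peaks was 11.4 for the 7 in liver, 66.7 for the 12 in MEFs and 28.8 for the 10 in Hep3B. To set the peaks at these genes beside each whole list, both were split by distance to any protein-coding TSS. In liver, the 9 peaks within 1 kb had a median percentile of 37.0 and the other 51 of 58.5, beside 32.0 and 53.0 over the list. In MEFs the medians were 63.1 for 21 peaks and 24.0 for 63, beside 67.4 and 43.6. In Hep3B they were 30.1 for 14 peaks and 32.7 for 13, beside 59.3 and 39.5. When every list was cut to its 14369 strongest peaks, 0 of 10 genes had a promoter peak in liver, beside 4.97% of all protein-coding genes, 6 in MEFs, beside 33.8%, and 9 in Hep3B, whose list is of that length, beside 43.7%.

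Liver and MEF peaks at these genes often overlapped. Of the liver peaks, 19 of 60 (31.7%) shared at least 1 bp with a MEF peak, beside 18.9% of all liver peaks, and of the MEF peaks 21 of 84 (25.0%) shared with liver, beside 21.4%. Amotl2 held 8 of these in each list. Without Amotl2 the counts were 11 of 44 liver peaks (25.0%) and 13 of 73 MEF peaks (17.8%), so the higher share in MEFs rested on this gene. The summits of overlapping pairs lay a median of 196 bp apart, and 6 of 24 pairs were within 100 bp. The closest were at Amotl2 (4 bp), the Tead4 site near Tspan9 (6 bp) and the Wwtr1 site in Tm4sf4 (7 bp). This Tm4sf4 site ranked at percentile 94.6 in liver and 33.4 in MEFs.

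Human and mouse were compared by sequence, aligning the sequence within 250 bp of each Hep3B summit to the mouse window of the same gene. An alignment was found for 22 of 27 Hep3B peaks (81.5%), beside 72.8% of all pairs of a gene and a Hep3B peak treated alike. On a liver or MEF peak fell 17 of 27 (63.0%, beside 61.2%), and on a peak of both 4 of 27 (14.8%, beside 22.5%). The 4 were the promoter of Wwtr1 and the promoter, intron and distal sites of Amotl2. Of the 13 Hep3B peaks more than 1 kb from any protein-coding TSS, 7 (53.8%) aligned on a liver or MEF peak, beside 32.5% of such pairs over all genes. Of these 13, 6 (46.2%, beside 15.6%) aligned on a liver peak and 3 (23.1%, beside 26.8%) on a MEF peak. The 6 came from few loci: Amotl2, Tead1 and a cluster of neighbouring peaks nearest to TM4SF4 in the WWTR1 window. In that cluster the peaks with a −log10 p of 4.40 and 5.91 had their summits outside the alignment.

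The printed pairs differ in how closely they align. The Tead1 intron was identical at 118 of 121 aligned positions (97.5%). Its human peak had a −log10 p of 7.49 and its liver partner one of 17.3 (percentile 86.9), with no MEF peak there. The Amotl2 intron was identical at 109 of 125 positions (87.2%). In this stretch the half-site letters were matched in both species and the TEAD letters in human alone. The liver peak over it had no half-site within 150 bp of its own summit. In the Amotl2 distal pair, identical at 52 of 61 positions (85.2%), the TEAD letters were matched in both, and the site carried a −log10 p of 6.76 in Hep3B, 19.9 in liver and 7.13 in MEFs. The Wwtr1 region, identical at 87 of 121 positions (71.9%), carried a −log10 p of 5.34 in Hep3B and 13.2 in liver. It held 2 half-sites in each species, 0 of them at the same aligned position, and the liver peak had none within 150 bp of its own summit. The start of Lats2, where the 24 bases printed are the same in both species, was occupied in Hep3B (6.62) and MEFs (6.50) and not in liver.

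Motif letters were counted within 150 bp of the summit on both strands, and no motif of the set contains another. A TEAD site was matched at 11 of 60 liver peaks (18.3%, beside 15.7% of all liver peaks), 22 of 84 MEF peaks (26.2%, beside 19.8%) and 10 of 27 Hep3B peaks (37.0%, beside 14.7%). Without AMOTL2 the Hep3B count was 7 of 23 (30.4%). TEAD letters stood at the promoter peaks of Yap1, Cyr61 and Amotl2 in liver, of Yap1, Wwtr1, Tead1, Tead4, Lats2, Cyr61 and Amotl2 in MEFs, and of WWTR1, TEAD1, TEAD4, LATS2 and CCN1 in Hep3B. The nuclear receptor half-site was matched at 22 liver peaks (36.7%, beside 32.0%), 18 MEF peaks (21.4%, beside 16.4%) and 7 Hep3B peaks (25.9%, beside 14.1%). In liver it lay at the strongest peaks of Tead1 and Amotl2, at more than 60 bp from the summit, and at that of Tead4, within 60 bp of it. AP-1 sites were matched at 7 liver (11.7%, beside 10.8%), 14 MEF (16.7%, beside 17.7%) and 1 Hep3B peak (3.70%, beside 8.12%). The PROX1 consensus, with up to 2 mismatches, was matched at 4 liver (6.67%, beside 6.19%), 4 MEF (4.76%, beside 5.00%) and 0 Hep3B peaks (beside 5.02%). Few or no matches say only that these letters were not in the window.

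Other genes of the pathway, from lists written from general knowledge, were counted by the same promoter rule. Of 29 other regulators, 13 had a promoter peak in liver (44.8%), 27 in MEFs (93.1%) and 26 in Hep3B (89.7%). Of 21 other YAP targets, 7 had one in liver (33.3%), 19 in MEFs (90.5%) and 7 in Hep3B (33.3%). All protein-coding genes gave 26.5%, 55.1% and 43.7%. The strongest liver promoter peaks were at Gadd45a, a stress response gene, with a −log10 p of 15.7, and at Ajuba (15.4), whose LIM protein holds LATS back. Vgll4 (14.7), whose product competes with YAP for TEAD, F3 (12.5), which encodes tissue factor, and Wwc1 (12.2), which encodes the upstream regulator KIBRA, followed. In MEFs they were at the kinase gene Taok3 (10.3), Wwc2 (9.71), Nf2 (9.56), which encodes the scaffold merlin, Stk3 (9.17), which encodes the kinase MST2, and Gadd45a (9.14). NF2 led in Hep3B (9.66, percentile 99.5), followed by TAOK2 (8.66), ARHGEF17 (8.60), TAOK3 (8.59) and VGLL4 (8.37).

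**Figure D5:**
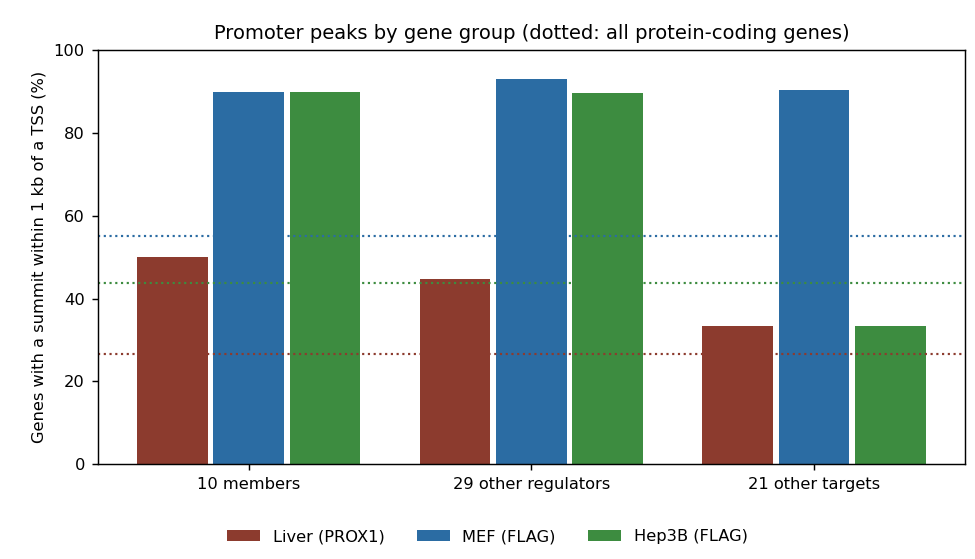
Share of genes with a promoter peak (y axis, percent) among the 10 genes, 29 other regulators and 21 other targets (x axis) in the 3 pooled lists, with dotted lines at the share of all protein-coding genes. MEF bars are at 90% or above in every group, while the Hep3B bar falls from 89.7% for regulators to 33.3% for other targets.

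The peaks closest to the 50 kb limit were of unequal strength inside and outside it. In liver the farthest peak inside it lay 46297 bp from Amotl2, with a −log10 p of 19.9, and the nearest outside it 51100 bp from the same gene, with 11.8. In MEFs these were 49893 bp from Wwtr1 (4.23) and 51156 bp from Amotl2 (7.34), and in Hep3B 48533 bp from WWTR1 (5.34) and 68446 bp from TEAD4 (7.14).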

How the data were processed

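CUT&RUN was performed on 22 samples, grouped by their labels. According to the methods, the authors aligned paired reads to mm10 or hg38 with Bowtie2 (v2.4.2) and called consensus peaks over the antibody samples of a group with Genrich (v0.6.1), which removed duplicates. The study describes its sites as called relative to IgG, but no control appears in the calling command given, so the step at which IgG was used is not known. Depth is unknown. The deposited score is a capped mean area per base and was not used. As deposited, the signal sums the significance curve over a peak (its area), and −log10 p and −log10 q, computed by the authors' caller, describe the summit. The deposited offset gives the summit's position. None was normalised between lists.

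Peaks were assigned with Python (3.11.15), pandas (2.3.3) and pysam (0.24.0) to GENCODE M21 (mouse) and GENCODE 44 (human) genes. TSSs were those of protein-coding transcripts. A summit within 1 kb was a promoter peak, and lists shared a peak at an overlap of at least 1 bp. Motifs were read from mm10 and hg38 with up to 2 mismatches for the PROX1 consensus, which was written from general knowledge, and 0 for the others. Hep3B stretches were aligned with blastn (2.17.0; e-value at most 0.001, at least 50 bp), an analysis added after seeing the data. Identity was counted over the aligned columns within 60 bp of the human summit. Scripts were tested on simulated data. The 8 Hep3B peaks on unplaced contigs had no gene.

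The members and lists were chosen with earlier results of these data known. Named were the 10 genes with their count and strongest peak, the nearest gene of a strongest peak, and up to 5 other pathway genes per list with the strongest promoter peaks. Alternatives were other flanks, promoter windows, thresholds, list sizes, overlaps and motif windows.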

Additional observations from a re-analysis of the deposited data

How the results depend on the processing

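Of 138 values recomputed under other settings, 89 stayed within 1.5 times the value reported, or within the interval of the median for the ranks. That interval was computed over the peaks of 1 list, treated as independent, and is not a replicate spread. Member peaks in liver numbered 34 with a flank of 10 kb, 98 with 100 kb and 25 in gene bodies alone, where 5 members had a peak; gene bodies held 48 MEF and 11 Hep3B peaks. With an area of at least 500 in every list, 31 MEF and 9 Hep3B peaks remained, 6 members had a peak and 4 a promoter peak in Hep3B, 18 other pathway genes had a Hep3B promoter peak, and 10 liver and 9 MEF peaks were shared. With the 14369 strongest peaks of each list, 16 liver peaks at 4 members, 0 liver members and 3 other genes with a promoter peak, 19 MEF peaks and 27 other genes with a MEF promoter peak were counted, and 2 peaks were shared in each list. Apart from the promoter shares given above for the 14369 strongest peaks, no share over all protein-coding genes was computed under these settings. Whether the other counts of genes exceed that share is therefore not known. Summits within 100 bp gave 6 shared peaks in each list, and leaving out Amotl2, a choice made after seeing the data, 11 in liver and 13 in MEFs. By area the median percentile was 45.4 in MEFs and 47.1 in Hep3B. The Hep3B value was counted as unchanged only because the interval there was wide, from 26.7 to 55.2. Within 50 bp of the summit, TEAD sites were matched at 6 liver, 9 MEF and 3 Hep3B peaks, AP-1 sites at 3, 9 and 0, half-sites at 13 liver and 5 MEF peaks and the PROX1 consensus at 0 liver and 0 MEF peaks. Within 150 bp and with up to 1 mismatch, the PROX1 consensus was matched at 0 liver, 0 MEF and 0 Hep3B peaks. The matches reported above thus needed 2 mismatches. Over whole peaks, TEAD sites were matched at 19, 39 and 16 peaks, AP-1 sites at 16, 25 and 5, half-sites at 34 liver and 11 Hep3B peaks and the PROX1 consensus at 9, 16 and 2. Longer windows hold more letters by construction. Motif shares over all peaks of a list were not computed for the 50 bp or whole-peak windows. Whether the motif counts in these windows exceed such shares is therefore not known. The higher TEAD share in Hep3B reported above was thus not tested in them. Of the 17 Hep3B peaks aligned on a mouse peak, 12 had their summit inside the alignment. No paired analysis was possible because each list pools the samples of a group.

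Peaks of 1 list have no replicate spread, and the depth behind them is unknown. A gene without a peak was not called in that list, which does not show that PROX1 was absent there.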
